A study of Mus musculus with 8 samples.

Results

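Voltage-gated sodium channel genes were examined in tissue of the upper cortical layers, II to IV, taken from mouse pups 5 days after birth. The set holds 8 of the 19938 genes measured, 5 pore-forming alpha subunits (Scn1a, Scn2a, Scn3a, Scn8a and Scn9a) and 3 auxiliary beta subunits (Scn2b, Scn3b and Scn4b). A member was read from the probe set that names it alone, and where several did, the probe set was selected on its mean level over the 8 arrays, the highest being kept. That choice, which did not use the genotypes, concerned Scn2a, kept at a mean of 10.67 (log2) with 10.49 for the next of its 14 probe sets, and Scn9a, kept at 4.98 with 3.94 for the other of its 2. The other 6 members had 1 such probe set each, and all 8 were tested, since no filter on dim genes was applied. The genes were proposed with earlier results of these data known, the value of Scn1a among them, so the differences below are described and support nothing on their own.

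Of the 8 pups, 4 were Bcl6 mutants (Bcl6 flox/flox;Nex Cre/+) and 4 were Bcl6 controls (Bcl6 flox/flox;Nex +/+), with 1 Affymetrix Mouse Gene 1.0 ST array for each pup. Both groups carry the floxed Bcl6 alleles on both chromosomes, and the mutants alone carry Cre, on 1 copy of the Nex locus. Nex is Neurod6, which cortical excitatory neurons switch on once they have left the cell cycle, so interneurons and glia in the captured tissue are not targeted by this Cre. Bcl6 encodes a zinc-finger repressor of transcription. Upper-layer tissue was taken by laser microdissection, and the captured piece holds every cell type of those layers, so fewer cells of a type and less RNA per cell cannot be told apart.

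Voltage-gated sodium channels open on depolarisation and carry the rising phase of the action potential. In the rodent forebrain, Scn3a and Scn2a are the alpha subunits of immature neurons, and Scn1a and Scn8a rise as neurons mature after birth. Scn1a is the main alpha subunit of fast-spiking interneurons, Scn2a and then Scn8a fill the axon initial segment of excitatory neurons, and Scn9a is best known from peripheral pain-sensing neurons. Beta subunits are single-pass membrane proteins with an immunoglobulin domain that set channel trafficking and gating, and Scn2b and Scn4b bind their alpha subunit by a disulfide bond.

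The deposited values are 1 log2 signal for each probe set and array. Array medians ran from 4.94 to 5.01, and each pair of arrays correlated at 0.9904 to 0.9939 over all probe sets. Mutant replicates 1 and 4 stood apart from the other 6 arrays by Xist, the X-inactivation RNA, at 9.78 and 9.76, against 2.64 to 3.41 in the others. The Y-linked Eif2s3y read 2.80 and 2.29 in them, against 7.39 to 7.79 in the others. By these values mutant replicates 1 and 4 read as female and the other 6 arrays, with all 4 controls, as male. Sex is thus partly confounded with genotype, and differences are also given without mutant replicates 1 and 4. For the members, the differences without them ran from -0.09 (Scn2a) to 0.18 (Scn9a) apart from Scn1a, given below, and 0 of the 8 passed the threshold in limma. Bcl6 read 6.61, 6.76, 6.96 and 6.78 in mutant replicates 1 to 4, against 6.55, 6.58, 6.25 and 6.23 in control replicates 1 to 4. The labels do not say whether its probes read the deleted exons, so this value checks neither group. Neurod6, the gene at the Cre insertion, read 8.84, 9.07, 8.69 and 8.73 in mutants, against 9.17, 9.41, 9.15 and 9.15 in controls. All 4 mutants lay below all 4 controls, with a difference of -0.39 ± 0.09 (SE; adjusted p = 0.535 in limma). Levels of different probe sets are not on a shared scale, since each has its own probes, and no member is ranked by level against another.

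Scn1a carries the largest difference of the set and Scn2a is the member measured by most probe sets, so the reference sequence at a start of each is shown. The windows run from 250 bases before to 50 bases after a RefSeq gene start (build GRCm38.p6). Capitals in the second mark matches to TTCCTAGAA, a motif of the kind that Bcl6 and STAT factors bind, here on the opposite strand, and to TATAAA, the TATA box. Scn2a has another window (chr2:65620519-65620818, plus strand), not printed, which held no match to any motif searched.
Scn1a (chr2:66440788-66441087, minus strand): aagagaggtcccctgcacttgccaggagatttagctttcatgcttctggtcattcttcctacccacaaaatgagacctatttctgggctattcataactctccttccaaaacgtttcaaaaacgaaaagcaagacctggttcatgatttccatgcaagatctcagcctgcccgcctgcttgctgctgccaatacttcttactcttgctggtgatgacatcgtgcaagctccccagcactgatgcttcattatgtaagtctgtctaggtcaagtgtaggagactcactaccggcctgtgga
Scn2a (chr2:65668436-65668735, plus strand): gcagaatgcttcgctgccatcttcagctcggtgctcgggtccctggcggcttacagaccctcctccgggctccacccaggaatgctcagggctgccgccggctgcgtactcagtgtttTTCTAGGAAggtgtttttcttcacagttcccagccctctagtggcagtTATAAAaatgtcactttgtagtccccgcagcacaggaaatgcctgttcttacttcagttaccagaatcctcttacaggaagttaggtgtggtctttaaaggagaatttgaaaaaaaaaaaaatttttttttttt

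The RefSeq table of such windows held 8 windows for 6 of the 8 members. Each was searched on both strands for TTCCTAGAA, for the looser TTCNNNGAA that contains it, for CAGCACC (part of the element bound by the neuronal repressor Rest) and for TATAAA. TTCNNNGAA lay in 3 of the windows, one each of Scn2a, Scn9a and Scn2b, and in 8.33% of the 32544 windows of the table. The exact TTCCTAGAA lay in the Scn2a window printed above alone among the 8, and in 0.415% of all windows. TATAAA was likewise found only in that window of the 8, and in 13.6% of all windows. CAGCACC was in none of the 8 and in 7.16% of all. None of these letters was in the Scn1a window, which has 5 CpG dinucleotides, against a median of 7 over all windows. The Scn8a window that starts at 100870395 on chromosome 15 has 38. A match of letters is a description of the window and not a binding site.

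The comparison of mutant with control pups asks whether sodium channel transcripts differ between these genotypes. No control carries Cre, so loss of Bcl6 cannot be told apart from Cre itself or from the altered Nex copy. None of the 8 members passed the threshold (limma, Benjamini-Hochberg adjusted p under 0.05 over all genes tested), and 1 of the 8, Scn1a, had an unadjusted p under 0.05. Over all genes 0.0652% passed the threshold and 4.91% had an unadjusted p under 0.05. Positive differences (higher in mutants) numbered 6 of 8, against 44.6% of all genes, and the median difference was 0.043 on the log2 scale, against -0.0096 over all genes tested. The 95% intervals show what sizes the 8 arrays leave possible for each gene. They reach at most 0.30 in either direction for the 7 members other than Scn1a.

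**Figure D1:**
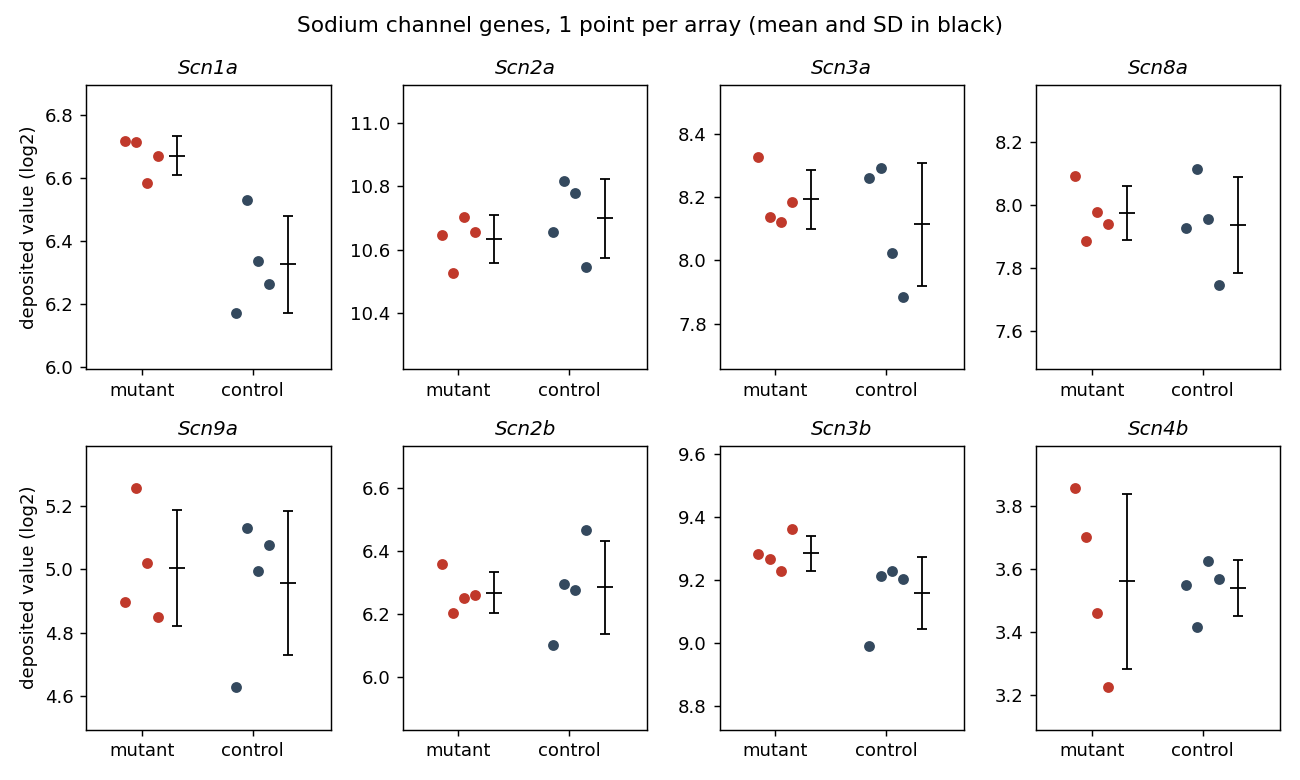
Deposited log2 values (y axis, each panel spanning the same range) of the 8 sodium channel genes, with a point for each of 4 mutant and 4 control pups and black marks for the mean and SD. Scn1a is the panel in which the groups do not overlap, with 6.58 to 6.72 in mutants, against 6.17 to 6.53 in controls.

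Among the alpha subunits of mature neurons, Scn1a read 6.72, 6.71, 6.58 and 6.67 in mutant replicates 1 to 4, against 6.17, 6.53, 6.34 and 6.26 in control replicates 1 to 4. All 4 mutant arrays lay above all 4 controls, and control replicate 2 was the control nearest to them. The means were 6.67 ± 0.06 in mutants and 6.32 ± 0.15 in controls (SD, n = 4 each), a difference of 0.35 ± 0.08 (SE) or 1.27-fold (95% interval 1.13 to 1.43, not adjusted for the number of genes). The adjusted p in limma was 0.491, so the difference did not pass over all genes. Its unadjusted p ranked 38 among the 19938 genes and 21 among those with a positive difference. The genotypes were fully separated in 1 of the 8 members and in 2.75% of all genes, or 0.963% with mutants above controls. Without the mutant arrays of high Xist the difference was 0.32 ± 0.11 (adjusted p = 0.998 in limma). Leaving out 1 array gave the largest difference without control replicate 2, at 0.41 ± 0.07 (adjusted p = 0.133 in limma). The smallest came without control replicate 1, the lowest control, at 0.29 ± 0.08 (adjusted p = 0.864 in limma).

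Scn8a, the alpha subunit of the mature axon initial segment and of nodes of Ranvier, read 8.09, 7.89, 7.98 and 7.94 in mutant replicates 1 to 4, against 7.93, 8.11, 7.96 and 7.75 in controls. The groups overlapped throughout, with both the highest and the lowest array among the controls. The difference was 0.04 ± 0.08 (SE), with a 95% interval of -0.14 to 0.22 and an adjusted p of 1.00 in limma. It was -0.0035 without the mutant arrays of high Xist.

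Of the alpha subunits of immature neurons, Scn2a read 10.65, 10.52, 10.70 and 10.66 in mutants, against 10.66, 10.82, 10.78 and 10.54 in controls. The mutant values lay inside the range of the controls apart from mutant replicate 2, which was the lowest of the 8. The difference was -0.07 ± 0.08 (SE; 95% interval -0.23 to 0.10), and without control replicates 2, 3 or 4 or mutant replicate 2 it was -0.03, -0.04, -0.12 and -0.03 in turn. Scn3a, which in rodents is highest around birth, read 8.33, 8.14, 8.12 and 8.19 in mutants, against 8.26, 8.29, 8.02 and 7.88 in controls. The controls spread more widely than the mutants, with SDs of 0.094 in mutants and 0.195 in controls, and control replicate 4 was the lowest array. The difference of 0.08 ± 0.09 (95% interval -0.13 to 0.28) was smaller than the spread between control arrays, and it was 0.0018 without control replicate 4, 0.03 without mutant replicate 1, 0.05 without control replicate 3, 0.13 without control replicate 1 and 0.14 without control replicate 2. Scn2a and Scn3a both had an adjusted p of 1.00 in limma.

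Scn9a, the last alpha subunit, read 4.90, 5.26, 5.02 and 4.85 in mutants, against 4.63, 5.13, 5.00 and 5.08 in controls. Its values fell under 5.55, the median over all genes, and the table holds no detection calls, so a signal near background cannot be marked as such. The groups overlapped, with a difference of 0.05 ± 0.12 (95% interval -0.21 to 0.30). The other Scn9a probe set differed by 0.18 ± 0.16, also with overlapping groups.

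**Figure D2:**
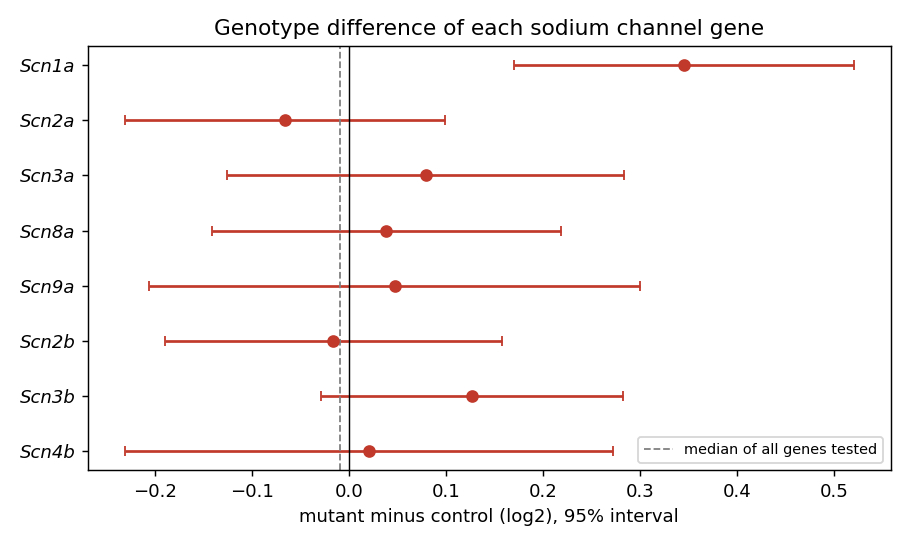
Mutant minus control difference (x axis, log2) of each sodium channel gene (y axis), with bars for limma's 95% interval and a dashed line for the median of all genes tested, -0.0096. The Scn1a interval, 0.17 to 0.52, is the one of the 8 that does not hold 0, and none of the 8 genes passed after adjustment over all genes.

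Among the beta subunits, Scn3b, which in the rodent brain is prominent early, read 9.28, 9.27, 9.23 and 9.36 in mutants, against 8.99, 9.21, 9.23 and 9.20 in controls. Of the mutant arrays, 3 lay above every control and the fourth lay level with control replicate 3. The difference was 0.13 ± 0.07 (SE; 95% interval -0.03 to 0.28; adjusted p = 1.00 in limma), and it was 0.07 without control replicate 1, which read lowest, and 0.09 without the mutant arrays of high Xist. Scn2b, a beta subunit of mature neurons that raises channel density at the surface, read 6.36, 6.20, 6.25 and 6.26 in mutants, against 6.10, 6.30, 6.28 and 6.47 in controls. The mutants lay within the range of the controls, and the difference was -0.02 ± 0.08 (95% interval -0.19 to 0.16).

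Scn4b, whose cytoplasmic tail gives rise to resurgent sodium current, read 3.86, 3.70, 3.46 and 3.23 in mutants, against 3.55, 3.41, 3.63 and 3.57 in controls. The mutants lay on both sides of the controls and spread 0.28 (SD), against 0.09 in controls. Like Scn9a it stood under the median of all genes, and the difference was 0.02 ± 0.12 (95% interval -0.23 to 0.27). Scn2b and Scn4b lie next to each other on chromosome 9 in the order of the RefSeq gene table, with 0 genes between them. Their mutant replicate 1 was the highest mutant array in both, while the lowest mutant arrays differed.

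Mature and neonatal alpha subunits were set against each other within each array. All pups were of 1 age, so no change over time was followed. The measure was the mean log2 value of Scn1a and Scn8a minus that of Scn2a and Scn3a, with the control mean set to 0. This removes any shift common to the 4 genes on an array. The log2 ratio was 0.19, 0.25, 0.14 and 0.16 in mutant replicates 1 to 4, against -0.13, 0.04, 0.02 and 0.07 in control replicates 1 to 4. All mutants lay above all controls, and the means were 0.19 ± 0.04 in mutants and 0.00 ± 0.09 in controls (SD, n = 4 each). Without the mutant arrays of high Xist the difference was 0.195. Because Scn1a was proposed with its difference known, the ratio is described with no test.

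The pairs of genes within this ratio gave different values. Scn1a over Scn3a was higher by 0.27 in mutants and Scn1a over Scn2a by 0.41, and in both the groups did not overlap. Scn8a over Scn2a was higher by 0.10, with 2 of 4 mutants above the highest control. Scn8a over Scn3a was lower by 0.04 in mutants, a difference of -0.04 with overlapping groups and SDs of 0.05 in mutants and 0.11 in controls. The separation of the genotypes was thus seen in the ratios that hold Scn1a.

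**Figure D3:**
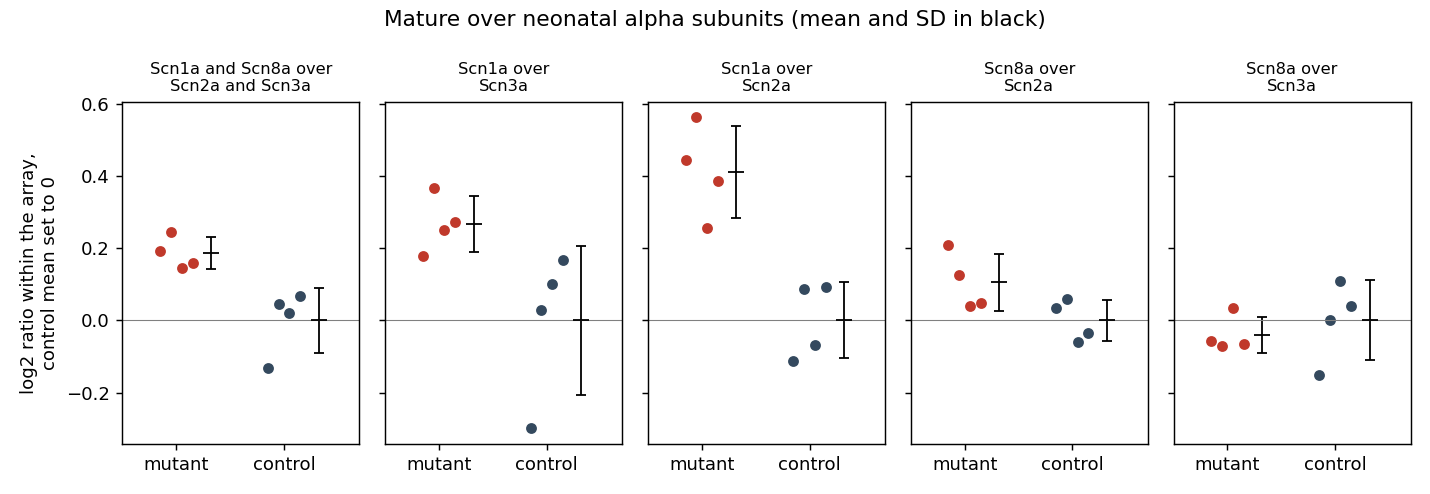
Log2 ratio of mature over neonatal alpha subunits within each array (y axis, control mean set to 0) for the 4 genes together and for each pair, with a point for each of 4 mutant and 4 control pups and black marks for the mean and SD. The mutants lie above all controls in the 3 panels that hold Scn1a and overlap the controls in both panels of Scn8a alone.

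Scn2a gave a measure of how closely different probe sets of a gene follow each other, since 14 probe sets named it alone. Which stretch of the transcript each one reads was not looked up here. Their means over the 8 arrays ran from 8.33 to 10.67 (log2), but their differences between genotypes stayed between -0.09 and 0.02, with 12 negative and 2 positive and a median of -0.03. The groups overlapped in all 14, and the smallest unadjusted p in limma was 0.206. The arrays were ordered alike across them. Mutant replicate 2 was the lowest mutant array in 12 of 14, control replicate 2 the highest control in 11, and control replicate 4 the lowest control in 10.

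Averaged over the 14 probe sets, the deviation from each probe set's mean was 0.05, -0.14, 0.01 and 0.01 in mutant replicates 1 to 4, against -0.08, 0.15, 0.11 and -0.11 in control replicates 1 to 4. Pups of 1 genotype lay as far apart as 0.26 among controls, against a median difference of -0.03 between genotypes. The 14 probe sets share the same RNA samples, so they repeat the measurement of these pups and add no animals. A further 3 probe sets name several members and were not assigned to a gene. Their values differed by 0.03 to 0.06 between genotypes with overlapping groups, and the one that names both Scn3a and Scn1a averaged 7.94 ± 0.07 in mutants and 7.90 ± 0.16 in controls (SD, n = 4 each).

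**Figure D4:**
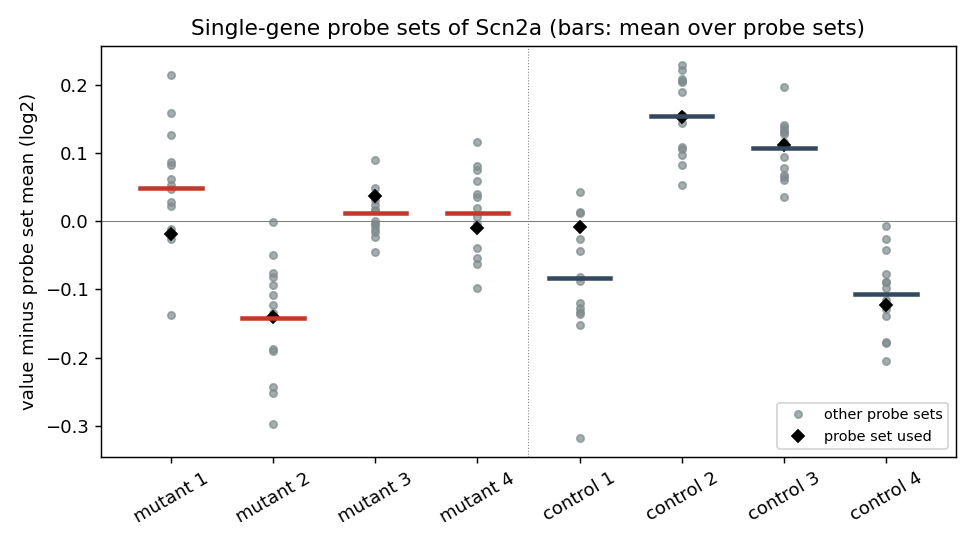
Deviation of each Scn2a probe set from its own mean over the 8 arrays (y axis, log2) in each array (x axis, mutants left), with grey points for 13 probe sets, a black diamond for the one used and a bar for the mean over all 14. The bars range from -0.14 in mutant replicate 2 to 0.15 in control replicate 2, and the 2 genotypes overlap.

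Scn3a, Scn2a, Scn1a and Scn9a lie close together on chromosome 2, and the tested genes around and between them were read for a shift of the whole stretch. In the gene order of GRCm38.p6 these were Csrnp3, Galnt3 and Ttc21b between Scn3a and Scn1a, Grb14, Cobll1 and Slc38a11 on the Scn3a side, and Gm13629 and Scn7a on the Scn1a side, beside Scn9a. Their 8 differences lay between -0.21 (Scn7a, a channel-like gene that is not opened by voltage) and 0.04 (Ttc21b, a cilium transport gene). None passed the threshold, 0 had an unadjusted p under 0.05 in limma, and the groups overlapped in all 8. Whether Scn1a differed from the genes around it was not tested.

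The rest of the channel's machinery was read from 7 lists, chosen like the members with earlier results known. Of 103 listed genes 82 were tested, 0 passed the threshold in limma and 4 had an unadjusted p under 0.05, or 4.88%, against 4.91% of all genes. Of the other sodium channel genes, Scn7a, Scn10a, Scn11a and the sodium leak channel Nalcn were tested and differed by -0.21 ± 0.10, -0.18 ± 0.13, 0.01 ± 0.08 and -0.03 ± 0.07 (SE). Scn10a and Scn11a are channels of peripheral sensory neurons.

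The axon initial segment is where these channels gather, held by ankyrin G and beta IV spectrin. Of 18 tested genes of the initial segment and node, 12 differences were positive and 6 negative, with a median of 0.014. Kcnq3, a subunit of the M-type potassium channel that shares the ankyrin anchor of sodium channels, read 9.57, 9.37, 9.48 and 9.36 in mutants, against 9.17, 9.41, 9.15 and 8.82 in controls. Control replicate 2 reached the mutants, and the difference was 0.31 ± 0.11 (SE; adjusted p = 0.923 in limma). Next by p were Cntnap1, a protein of the paranode (-0.14 ± 0.07), Bcan, a proteoglycan of the perineuronal matrix (0.14 ± 0.09), and Map6, a microtubule stabiliser (0.11 ± 0.07).

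Among 19 tested partners and regulators of the channel protein, 8 differences were positive and 11 negative, with a median of -0.009. Nedd4l, a ubiquitin ligase that takes sodium channels off the membrane, read 9.50, 9.34, 9.46 and 9.41 in mutants, against 9.13, 9.35, 9.22 and 9.26 in controls, a difference of 0.19 ± 0.07 (SE; adjusted p = 0.932 in limma). Fgf12, an intracellular FGF that binds the channel's tail and shifts its inactivation, read 8.87, 8.83, 8.88 and 8.91 in mutants, against 8.96, 9.06, 9.13 and 8.99 in controls. All 4 mutants lay below all controls, by 0.17 ± 0.06 in the mean (adjusted p = 0.974 in limma), and it was the 1 gene of the 82 whose groups did not overlap, a share of 1.22%, against 2.75% of all genes. The related Fgf11 differed by -0.17 ± 0.12, and the receptor phosphatase Ptprb by 0.17 ± 0.07.

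The remaining lists lay close to 0. Regulators of sodium channel transcripts, among them Rest and the splicing factors of the Rbfox and Nova families, had a median of 0.002 over 14 genes, with Rbfox1 at 0.08 ± 0.07, Rcor1 at -0.08 ± 0.08, Nova2 at 0.06 ± 0.09 and Hdac2 at -0.04 ± 0.07 (SE). The secretases that cut beta subunits had a median of 0.011 over 7 genes, with Bace1 at 0.11 ± 0.07, Ncstn at -0.09 ± 0.07, Aph1a at 0.08 ± 0.08 and Bace2 at 0.09 ± 0.08. Sodium pumps and exchangers had a median of -0.025 over 7 genes, with Atp1b1 at -0.07 ± 0.06, Slc8a1 at 0.07 ± 0.10, Slc9a5 at -0.06 ± 0.11 and Slc8a3 at -0.05 ± 0.09. Potassium channels of repetitive firing had a median of -0.014 over 13 genes, with Kcna4 at -0.13 ± 0.09, Kcnb2 at 0.09 ± 0.08, Kcnt2 at 0.09 ± 0.08 and Kcnc1 at 0.05 ± 0.06. In these 4 lists 0 genes had an unadjusted p under 0.05 in limma.

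**Figure D5:**
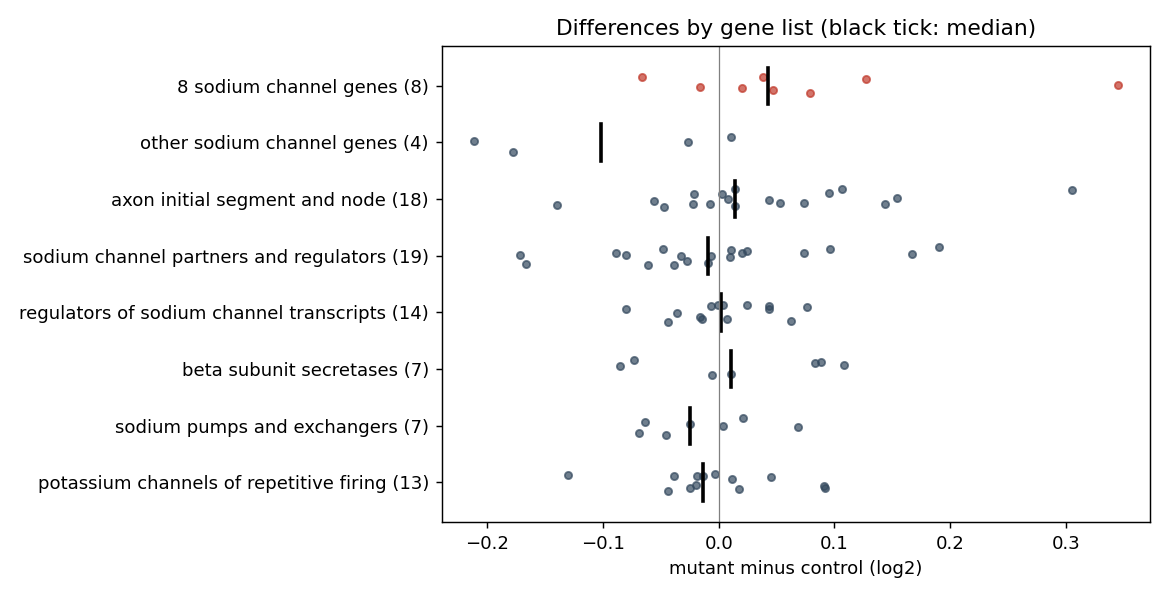
Mutant minus control difference (x axis, log2) of each tested gene in the 8 sodium channel genes and 7 related lists (y axis, tested genes in parentheses), with a black tick for the median. The list medians run from -0.102 for the other sodium channel genes to 0.014 for the initial segment, and Scn1a at 0.35 and Kcnq3 at 0.31 lie farthest to the right.

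Since Scn1a is made by several kinds of neuron, markers of the cell types in the captured tissue were set beside it. The 12 interneuron markers had 6 positive and 6 negative differences, a median of 0.0003, and a mean level per array of 6.80 to 6.92 in mutants, against 6.75 to 6.93 in controls. Pvalb, the marker of fast-spiking interneurons, differed by -0.01 ± 0.06 (SE) from a level near 4.0. Like Scn9a, Pvalb stood under 5.55, the median over all genes, where a signal near background cannot be marked as such. Its value therefore says nothing on fast-spiking interneurons in these pups. The 7 excitatory neuron markers had a mean level of 8.82 to 8.88 in mutants, against 8.85 to 8.98 in controls. Their differences were 3 positive and 4 negative. These markers include Neurod6, the gene at the Cre insertion, which is altered in every mutant by design. The ranges were not recomputed without it, so they are not read as a level of excitatory neurons. Neurod6 lay lower in all mutants, as given above, while Tbr1, a factor of deep-layer and early-born neurons, lay above all controls in all 4 mutants, by 0.17 ± 0.07 in the mean (adjusted p = 0.988 in limma). The 8 markers of layers V and VI had a mean level of 6.11 to 6.22 in mutants, against 6.01 to 6.09 in controls, and did not overlap. With Ldb2 left out, a choice made after its values were seen, the ranges were 5.79 to 5.90 in mutants, against 5.79 to 5.90 in controls. Ldb2 read 8.64, 8.47, 8.07 and 8.36 in mutants, against 7.43, 7.29, 7.58 and 8.03 in controls (adjusted p = 0.197 in limma), and all 4 mutants lay above all controls. The 8 marker lists held 67 different genes tested, of which 0 passed the threshold in limma, and the list medians lay between -0.038 (microglia) and 0.050 (astrocytes). An unadjusted p under 0.05 was seen in 7 of the 67 (10.4%, against 4.91% of all genes), and the genotypes were fully separated in 5 (7.46%, against 2.75% of all genes). Those 5 were Ldb2, Tbr1 and Bcas1, of maturing oligodendrocytes (0.24 ± 0.07, SE), above the controls, and Neurod6 and Gfap, an astrocyte filament (-0.11 ± 0.06), below them. The genes with an unadjusted p under 0.05 in limma but overlapping groups were Dcn (-0.55 ± 0.25), P2ry12 (-0.27 ± 0.10) and Crym (-0.22 ± 0.10). Dcn read 4.61 in control replicate 1, the lowest control for Scn1a, against 3.20 to 3.54 in the other controls. The other mural and meningeal markers were mixed on that array. It was the highest control for Col1a1, Col1a2 and Lum, the lowest for Rgs5 and Cspg4, and neither for Pdgfrb and Acta2. The part of these marker genes in the sodium channel values was not tested. Every marker gave a value, as each probe set does on this array, so no marker can be called absent.

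The genes whose pattern over the 8 arrays was most like that of Scn1a were taken from the 9968 other genes above the median level, by Pearson correlation. They were Npc2 (r = 0.97), Fmn2 (0.94), Mtarc2 (0.94), Armc10 (0.93) and Zfp786 (0.93), and the most opposite were Kcng1 (-0.98), Xrcc3 (-0.98) and Rab7 (-0.96). Kcng1, a modifying subunit of potassium channels, differed by -0.22 ± 0.06 (SE; adjusted p = 0.713 in limma). With the genotype means removed the correlations were 0.77 to 0.90 for the 5 alike and -0.96 to -0.93 for the 3 opposite. These are the extremes of many genes over few arrays that share their RNA, so they are given as a description.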

How the data were processed

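RNA of laser-microdissected neocortex from 8 pups was hybridised to GeneChip Mouse Gene 1.0 ST arrays. The authors deposited 1 log2 value for each of 35556 probe sets and array, made with BRB-ArrayTools per the labels; no source used here gives the version, background correction, normalization or summarization. That the scale is log2 was read from the values, which run from 0.74 to 13.63. Of 23410 annotated probe sets, 21789 name 1 gene and 1621 several, and symbols were updated by Entrez identifier for 21698 (RefSeq table, GRCm38.p6). With 1 probe set kept for each gene, 19938 genes remained.

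For the genotype comparison, lmFit and eBayes of limma 3.58.1 (R 4.3.3) were run two-sided on all arrays with genotype alone in the model, with Benjamini-Hochberg adjustment over all genes and a threshold of 0.05. The fit was tested on simulated data. Differences are mutant minus control (log2) with the moderated SE. All members, the 4 genes of smallest p in each list, 3 tested genes on each side of the chromosome 2 cluster and the genes most like Scn1a were named. Members and lists were chosen with earlier results of these data known. The labels describe separate pups, so the spread holds differences between animals. Depth has no meaning here, and the number of arrays limits precision. Replicate numbers were not used to pair pups. Each value was recomputed after other normalizations (quantile, median, cyclic loess), with dim genes removed, with other priors or weighted arrays, with a block for the replicate number, with other choices of probe set, with a Y-linked covariate, and without 1 array or both mutant arrays of high Xist.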

Additional observations from a re-analysis of the deposited data

Results flagged for a closer look

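Scn3b in control replicate 1 read 8.99 (log2), away from the other controls at 9.20 to 9.23, a gap larger than Dixon's critical value for 4 samples. It was the 1 of 16 groups of 4 arrays looked at (8 genes in each genotype) to do so, and chance gives about 1 in 20.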

How the results depend on the processing

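Of the 8 members, 0 passed the threshold in limma under any alternative, and the Scn1a difference stayed positive in all 20, at 0.29 to 0.41 with adjusted p from 0.133 to 0.999. Scn2a, Scn3a and Scn3b also kept their direction in all of theirs, but leaving out 1 array gave -0.12 to -0.027 for Scn2a, 0.0018 to 0.14 for Scn3a and 0.071 to 0.15 for Scn3b. Scn4b and Scn9a gave no value with dim genes removed. Signs turned for members near 0. Scn4b was -0.040 with array weights, Scn8a was -0.00031 with the Y-linked level as covariate and -0.0035 without the 2 mutant arrays of high Xist. Leaving out 1 array gave -0.078 to 0.13 for Scn4b, -0.025 to 0.098 for Scn8a, -0.064 to 0.11 for Scn9a and -0.077 to 0.044 for Scn2b. The mature over neonatal ratio, 0.19 higher in mutants, was 0.27 for Scn1a against Scn3a, 0.10 for Scn8a against Scn2a and, for pairs added after seeing the data, 0.41 for Scn1a against Scn2a and -0.040 for Scn8a against Scn3a. It was 0.14 to 0.21 leaving out 1 array and 0.17 after quantile normalization. Over all genes, 13 calls became 5 with the replicate block, 4 with the Y-linked covariate, 2 without the mutant arrays of high Xist and 3 to 13 leaving out 1 array, where fewer arrays leave fewer degrees of freedom; otherwise the cause was not tested. The block left the Scn1a difference at 0.35 (adjusted p = 0.470 in limma). Same-numbered arrays correlated from -0.01 to 0.16 in their deviations, and 3 of 8 arrays correlated best with their own number. So few arrays cannot show whether the numbers mark pairs. The main fit did not take them as pairs. Intervals are wide for a set of 4 arrays in each group, with SEs of 0.07 to 0.12.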
